A study of Mus musculus with 9 samples.

Results

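CpG-poor low-methylated distal tiles are 1-kb stretches of the genome that hold few CpGs, lie away from the ends of protein-coding genes and carry less cytosine methylation than the DNA around them. They were chosen on 5 conditions: an autosomal tile (tiles laid end to end from base 1), 3 to 15 CpGs listed in every library, 50 or more calls in every library, a pooled Control methylation level of 10 to 50%, and a distance of more than 5 kb from either end of any protein-coding gene of GRCm38. The level window uses the Control libraries, so the Control level of these tiles describes the choice and is not a finding. The conditions on CpGs, calls and distance left 641730 tiles, called distal CpG-poor tiles here, and 14269 of them (2.22%) had the chosen level. The deposited calls touch 2415007 tiles in all.

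The libraries are whole-genome bisulfite sequencing of nucleus accumbens, a ventral striatal region of the forebrain, from 5 mice labelled Control (libraries 2, 3, 4, 5 and 8) and 4 labelled Susceptible (libraries 2, 3, 6 and 7). Per the labels, the mice were male C57BL/6J of 8 weeks. Daily defeats by an unfamiliar CD1 aggressor over 10 days are the one treatment they describe, in the same words for both groups, so how the Control mice were handled is not given in the sources used here. No gene was altered and no drug is named. The DNA came from frozen punches, which hold a mixture of cells, so a tile methylated in some cell types and not in others cannot be told apart from a tile that is partly methylated in each cell. Whether each library is 1 mouse is read from the labels' separate samples, and p-values measure the spread between these libraries. Susceptible 6 and 7 stood apart from the other libraries near striatal genes, and Control 5 and 8 had the fewest listed cytosines, so library values are printed and the group difference is also given without Susceptible 6 and 7.

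In mammals, CpG methylation covers most of the genome, and short stretches where it is reduced, away from promoters and outside CpG islands, often coincide with enhancers and other sites bound by transcription factors. Bound factors and TET enzymes, which oxidise 5-methylcytosine, keep such stretches at low or intermediate levels, while DNMT3A and DNMT1 add and maintain methylation. Because enhancers are used by particular cell types, the positions of these stretches differ between neurons, glia and other cells. Bisulfite reads do not separate 5-methylcytosine from 5-hydroxymethylcytosine, which is abundant in neurons.

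The stretches before internal start sites of 4 listed neuronal genes show what such DNA looks like, since their RefSeq promoter windows (GRCm38.p6) lie inside the gene and overlap a chosen tile. They are the 250 bases before the start, 5′ to 3′ on the gene's strand, with CG in capitals. The Foxp1 stretch lies at chr6:99266516-99266765 (minus strand), the Arpp21 stretch at chr9:112185950-112186199 (minus), the Nrxn3 stretch at chr12:88953140-88953389 (plus) and the Rbfox1 stretch at chr16:7069585-7069834 (plus).
Foxp1: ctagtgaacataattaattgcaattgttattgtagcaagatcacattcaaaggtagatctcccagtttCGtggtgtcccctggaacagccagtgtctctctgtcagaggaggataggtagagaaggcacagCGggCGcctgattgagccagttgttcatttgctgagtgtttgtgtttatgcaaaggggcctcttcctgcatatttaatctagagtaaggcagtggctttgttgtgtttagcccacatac
Arpp21: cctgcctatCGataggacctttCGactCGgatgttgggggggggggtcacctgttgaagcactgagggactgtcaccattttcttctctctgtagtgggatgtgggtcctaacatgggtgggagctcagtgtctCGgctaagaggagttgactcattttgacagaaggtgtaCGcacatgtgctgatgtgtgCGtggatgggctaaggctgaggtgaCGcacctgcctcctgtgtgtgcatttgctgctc
Nrxn3: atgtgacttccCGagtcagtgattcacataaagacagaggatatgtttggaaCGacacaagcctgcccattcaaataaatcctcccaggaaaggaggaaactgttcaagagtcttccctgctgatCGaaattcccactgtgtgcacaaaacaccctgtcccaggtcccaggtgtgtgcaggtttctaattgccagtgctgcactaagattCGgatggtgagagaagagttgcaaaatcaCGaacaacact
Rbfox1: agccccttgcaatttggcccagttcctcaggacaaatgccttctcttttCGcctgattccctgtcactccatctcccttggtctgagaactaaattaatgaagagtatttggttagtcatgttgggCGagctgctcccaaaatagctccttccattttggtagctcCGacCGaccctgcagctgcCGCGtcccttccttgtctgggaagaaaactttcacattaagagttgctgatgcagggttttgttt
These sequences hold 3, 7, 5 and 6 CGs, and the 21 CpGs that the deposited calls list within them are the same 21 positions.

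Foxp1 encodes a forkhead transcription factor of striatal projection neurons. Its tile read 43.6, 42.3, 41.7, 49.3 and 41.9% in Control 2, 3, 4, 5 and 8, against 45.4, 46.9, 68.5 and 64.6% in Susceptible 2, 3, 6 and 7, with 217 to 576 calls per library. Susceptible 6 and 7 were above the other 7 libraries, and the groups overlapped through Susceptible 2 and 3. The 3 CGs printed read 41.7, 45.7 and 63.8% over the pooled Control calls and 74.5, 71.4 and 76.9% over the pooled Susceptible calls. These values rest on 116 to 168 Control and 147 to 188 Susceptible calls, and 8 of the 9 libraries list each CG. Arpp21, a cAMP-regulated phosphoprotein of the striatum, held a sloping pattern. Its first 3 CGs in the printed order read 20.6, 19.2 and 17.8% in the pooled Control calls, and the next 4, nearer to the start site, read 57.5, 56.4, 72.6 and 49.2%. The last of these lies just outside the chosen tile. In the Nrxn3 stretch, before an internal start of this presynaptic adhesion gene, the 5 CGs read 9.80 to 18.4% in Control. The 6 CGs of the stretch in Rbfox1, a splicing regulator of neurons, read 29.3 to 65.6%. Susceptible calls did not move in 1 direction over these 3 stretches. The first 3 CGs of Arpp21 read 27.6, 31.9 and 35.2% in Susceptible, and the next 4 read 39.3, 54.3, 56.6 and 47.2%. The Nrxn3 CGs read 9.86 to 35.2%, and those of Rbfox1 read 57.1, 35.2, 22.8, 21.3, 35.6 and 30.1% in the printed order. Over the 4 stretches a CG had 32 to 180 pooled Control calls and 42 to 188 pooled Susceptible calls. Each was listed in 5 to 9 libraries, so single CGs are shallow. The tiles of Arpp21, Nrxn3 and Rbfox1 had overlapping groups, at 25.8% ± 6.49 against 22.6% ± 10.1, 25.5% ± 11.8 against 30.2% ± 11.96 and 41.8% ± 17.5 against 42.8% ± 16.1 in Control (SD, n = 5) against Susceptible (SD, n = 4).

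Chosen tiles also overlapped 7 of the 218 miRNA hairpins that overlap distal CpG-poor tiles, some of them only at the hairpin's edge. The mature sequences below, from RefSeq with the seed (bases 2 to 8) in capitals, belong to brain miRNAs and to the 2 in this set that share a seed.
miR-138-5p: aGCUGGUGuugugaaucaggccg
miR-153-3p: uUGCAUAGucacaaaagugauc
miR-344-5p: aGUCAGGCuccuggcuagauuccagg
miR-344g-5p: aGUCAGGCuccuggcaggagu
The last 2 share the seed GUCAGGC and lie between genes on chromosome 7, with Ndn as the nearest protein-coding gene. The tile of Mir138-1 (chr9:122682001-122683000), nearest to Topaz1 at 64.2 kb, read 35.8, 38.5, 59.6, 46.9 and 49.4% in Control 2, 3, 4, 5 and 8, against 60.6, 56.3, 58.5 and 53.4% in Susceptible 2, 3, 6 and 7. Control 4 lay among the Susceptible libraries there. The tile at the edge of the Mir6374 hairpin, inside Tet3 (chr6:83400001-83401000), read 43.3, 42.7, 26.2, 50 and 31.6% in Control and 53, 56.6, 65 and 59.8% in Susceptible, on 50 to 106 calls per library. Its groups did not overlap, and nothing is read from this in a tile taken for a low Control level. The tile of Mir153, inside Ptprn2 (chr12:117250001-117251000), read 31.4 to 43.1% in Control and 28.6 to 44.9% in Susceptible. The Mir344-2 tile ranged from 10% in Control 3 to 91.8% in Control 5 on 61 to 124 calls per library, so its libraries of 1 group differed more than the group means of 45.6% and 34.0%.

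Most chosen tiles sat in the upper part of the window. There were 925 at 10 to 20%, 1875 at 20 to 30%, 3800 at 30 to 40% and 7669 at 40 to 50%, and the next class outside, 50 to 60%, held 14259 distal CpG-poor tiles. The number of tiles rose with level without a gap at either limit, and 413 tiles lay below 10%. The tile closest to 10% from inside was near Zfp213 (chr17:23537001-23538000, 10.02%, Wilson 95% interval 8.67 to 11.5%), and the closest from outside was in Ctdsp2 (chr10:126984001-126985000, 9.98%, interval 7.75 to 12.8%). At the upper limit the tile near Gm41844 (chr19:38349001-38350000) read 50% and was kept, and the tile near Slc34a2 (chr5:52996001-52997000) read 50.02% and was not. Their intervals, 47.1 to 52.9% and 47.9 to 52.1%, overlapped almost entirely. These intervals cover counting error only.

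**Figure D1:**
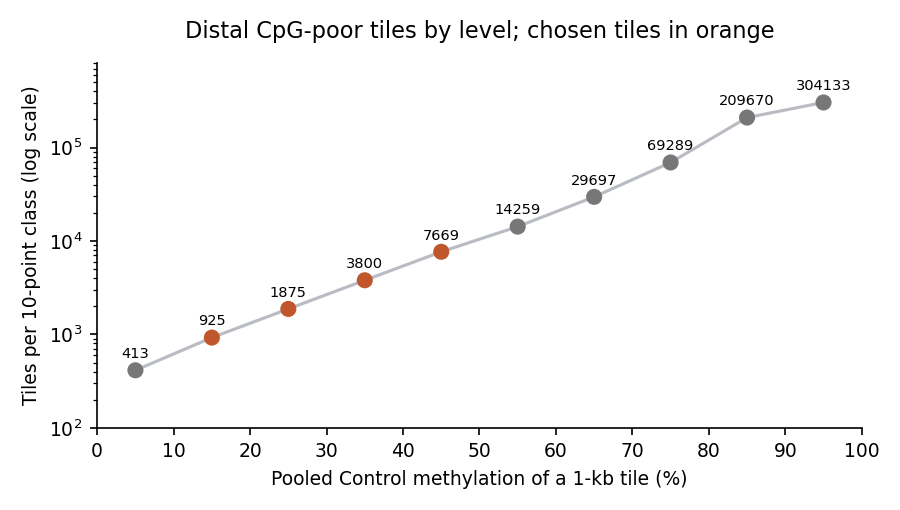
Number of distal CpG-poor tiles (log axis) in each 10-point class of pooled Control methylation (%), with the 4 chosen classes in orange. Counts rise from 413 tiles below 10% to 304133 above 90%, and the chosen classes hold 925 to 7669 tiles.

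The Susceptible libraries, whose levels the rule did not use, also placed most of these tiles at intermediate levels. Of the 14269 tiles, 10066 (70.5%) read 10 to 50% over the pooled Susceptible calls, 4108 (28.8%) read above 50% and 95 (0.666%) below 10%. Of those above 50%, 896 read over 60%. A choice on the mean of all 9 libraries gave 12903 tiles, of which 11968 are among the 14269, and 9995 tiles were chosen on Control, on the mean of 9 and on Susceptible alike.

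Single CpGs of chosen tiles covered the whole range of levels. Over 129461 CpGs with at least 30 pooled Control calls, 15.4% read below 10%, 27.2% read 10 to 30%, 25.8% read 30 to 50%, 16.2% read 50 to 70%, 9.99% read 70 to 90% and 5.53% read above 90%. The median gap between the highest and lowest CpG of a tile was 70.4 percentage points, and 38.9% of the tiles with 3 or more such CpGs held both a CpG below 10% and one above 70%. The gap was under 30 points in 5.59% of tiles. In the pooled Susceptible calls the median gap was 62.9 points. Such gaps between extremes widen with counting error and with the spread between libraries, and single CpGs rest on shallower counts than the tile. The gap in other tiles was not computed.

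The low level was narrow. In Control, tiles 1 kb before and after a chosen tile read 70.3 and 70.7% on average, and tiles at 2 kb read 78.1 and 78.2%. From 3 to 10 kb the averages stayed between 78.5 and 79.7%. Around distal CpG-poor tiles of over 50% the tiles at 1 kb read 85.6% on both sides. A level under 50% was found in 18.5 and 18.2% of the tiles next to a chosen tile, against 2.60% on both sides of a tile over 50%. Most chosen tiles stood alone: 12478 had no chosen neighbour, 775 runs held 2, 62 held 3, 10 held 4 and 3 held 5. A neighbour can also go unchosen through the limits on CpGs, calls or distance, so these counts do not measure level alone. In all, 12.6% of chosen tiles touched another one.

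**Figure D2:**
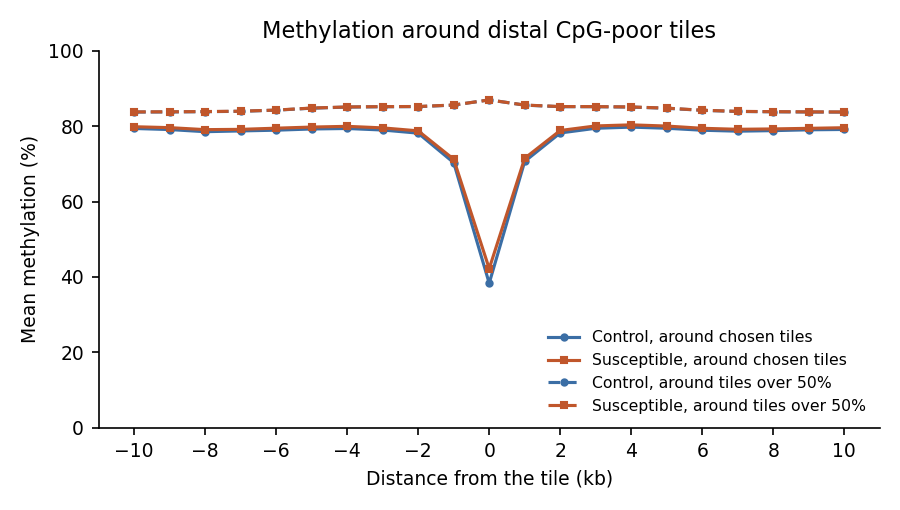
Mean methylation (%) of tiles by distance (kb) from chosen tiles (solid) and from distal CpG-poor tiles of over 50% (dashed), pooled Control calls in blue and pooled Susceptible calls in orange. The level falls to 38.4% in Control at the chosen tile, is 70.3 and 70.7% at 1 kb on either side and stays below the dashed lines out to 10 kb.

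The first of the runs of 5 described here is inside Ppp2r2c, a brain regulatory subunit of protein phosphatase 2A (chr5:36889001-36894000), with pooled Control levels of 45.5, 11.05, 27.7, 26.3 and 38.7% and pooled Susceptible levels of 47.8, 17.9, 31.6, 34.7 and 52.1%. Another is 5.04 to 9.04 kb from Barx1, a homeobox gene of craniofacial development (chr13:48653001-48658000), with 38.8, 33.1, 24.3, 29.2 and 29.7% in Control and 33.7, 32.0, 25.1, 41.8 and 24.9% in Susceptible. Levels moved up and down along each run in both groups. The tile at 24.3% near Barx1 ranged from 0% in Control 5 to 83.2% in Control 2.

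Gene context differed a little from that of other distal CpG-poor tiles. Of the chosen tiles, 7861 (55.1%) lay inside a protein-coding gene, 4605 (32.3%) outside but within 100 kb of one, and 1803 (12.6%) farther away. Among distal CpG-poor tiles of over 50%, 47.9% lay inside a gene. The median distance to the nearest gene end was 36.2 kb, against 42.5 kb. The 3 farthest tiles were 2209 kb from Pik3c3, 2137 kb from Cntnap5b and 1962 kb from Pcdh20. Shares of distal CpG-poor tiles by chromosome ran from 1.89% on chromosome 15 to 2.64% on chromosome 12. RefSeq promoter windows overlapped 376 chosen tiles (2.64%), against 0.800% of the tiles over 50%. Of these 376 tiles, 255 held a window of a long noncoding RNA gene and 122 an internal start of a protein-coding gene, from 110 genes.

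The 403 promoter windows that overlap chosen tiles held a median of 5 CGs and 49.9% G and C, against 3 CGs and 47.3% in the 4797 windows over distal CpG-poor tiles of over 50%. Motifs were searched as letters on both strands of each whole window (N is any base, and motifs of 10 or more letters are given by name), and a window may hold several of them, also overlapping. The RFX motif was found in 7 of the 403 windows (1.74%), in 0.5003% of the 4797 and in 0.568% of all 31365 windows. The E-box CAGCTG was in 21.6, 19.0 and 16.3% of them and the E-box CAGATG in 21.1, 25.3 and 17.2%. The SOX motif ACAAAG was in 24.3, 24.5 and 18.6%, and the AP-1 motif TGANTCA in 7.44, 10.6 and 7.85%. The CTCF core and the NFI motif were each in 1 of the 403 windows (0.248%), in 0.0625% of the 4797, and in 0.0638 and 0.0383% of all windows. These are matches of letters in the few chosen tiles with a promoter window, and they do not describe the rest.

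Calls per library in a chosen tile had a median of 226, with 85 and 503 at the 5th and 95th percentiles. Distal CpG-poor tiles of over 50% had a median of 217. Depth was therefore similar. In 15 chosen tiles (0.105%) the calls per CpG were over 3 times the median of 27.9. The highest were 2 neighbouring tiles in Gphn, which encodes the inhibitory synapse scaffold gephyrin (chr12:78350001-78352000), with 1455 and 1281 calls per CpG and library, and a tile in Sfi1, a centrosomal gene (chr11:3187001-3188000), with 380.

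Chosen tiles varied more between libraries of 1 group than highly methylated tiles did. The SD over the 5 Control libraries had a median of 11.6 points in chosen tiles, against 5.79 in distal CpG-poor tiles of over 50% and 10.6 in CpG-poor tiles of 10 to 50% within 5 kb of gene ends. Over the 4 Susceptible libraries the medians were 8.01, 3.48 and 6.74 points. The dispersion within groups had medians of 10.6, 6.01 and 9.63. It is a ratio that is 1 when libraries list the same CpGs, differ by counting error alone and all calls are independent. Whether the calls of a tile are independent was not tested. The dispersion rose with level inside the window, from 8.94 in tiles of 10 to 20% to 10.9 in tiles of 40 to 50%. Each library was summed over the CpGs it lists, which can differ between libraries, and the CpGs of a tile differ in level. How much this adds to the SD and the dispersion was not tested. Control 5 and Control 8 had the fewest listed cytosines. One or the other was the library farthest from the median of all 9 libraries in 54.0% of chosen tiles and in 53.5% of all tiles tested.

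The largest SD over Control with 100 or more calls in every library was near Otud7a (chr7:63346001-63347000), which read 33.6, 12.4, 15.4, 36.6 and 92.0% in Control 2, 3, 4, 5 and 8, against 24.8 to 51.0% in Susceptible. A tile in Myo3b (chr2:70155001-70156000) read 38.4, 0, 48.2, 73.1 and 0% in Control and 23.7 to 57.2% in Susceptible. A tile near H2-Q10 (chr17:35484001-35485000) read 12.1, 19.7, 13.1, 82.0 and 3.93% in Control and 16.3 to 29.1% in Susceptible. In the first and last of these a single Control library stood far above the others, and in Myo3b the Control libraries spread from 0% upwards.

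Averaged over the 14269 tiles, levels were 39.1, 40.1, 40.2, 37.2 and 36.2% in Control 2, 3, 4, 5 and 8, against 39.9, 39.7, 45.6 and 43.7% in Susceptible 2, 3, 6 and 7. Susceptible 6 and 7 were above every Control library, while Susceptible 2 and 3 lay within the Control range. The means were 38.6% ± 1.81 in Control (SD, n = 5) and 42.2% ± 2.92 in Susceptible (SD, n = 4), a difference of +3.65 points. The rule takes tiles with low Control levels, so a positive difference is favoured by its construction. Chosen on the mean of all 9 libraries, the tiles differed by +1.74 points. Chosen on the Susceptible libraries, they differed by -1.003 points, so the sign followed the libraries used to choose. When each Control library was read over tiles chosen on the other 4, Control averaged 41.6% ± 1.06 (SD, n = 5) and Susceptible 42.8% ± 2.90 (SD, n = 4) over the same tiles, a difference of +1.16. There Susceptible 2 and 3 read 40.4 and 40.3%, Susceptible 6 and 7 read 46.1 and 44.2%, and the Control libraries read 40.5 to 42.9%. Each Control value is over its own set of tiles, and each Susceptible value is a mean over the 5 sets. Single libraries are therefore not ordered on the same tiles. Without Susceptible 6 and 7, the difference over the 14269 tiles was +1.22 points.

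**Figure D3:**
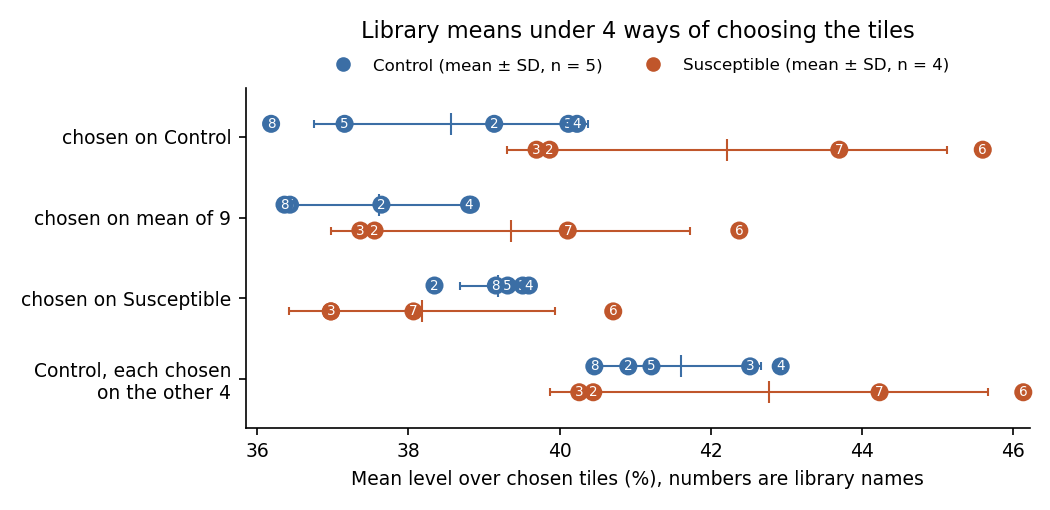
Mean methylation (%) over chosen tiles in each library (numbered points) with group mean and SD, Control in blue and Susceptible in orange, for 4 ways of choosing the tiles. The difference of means is +3.65 points when chosen on Control, +1.74 on the mean of 9, -1.003 on Susceptible and +1.16 with each Control library held out of the choice, and library 6 is the highest in each row.

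Over all 627048 distal CpG-poor tiles of over 50% this order was not seen. They averaged 87.0% ± 0.397 in Control (SD, n = 5) and 86.9% ± 1.25 in Susceptible (SD, n = 4). Susceptible 7 was the lowest library at 85.0% and Susceptible 6 the highest at 87.9%. Taking tiles above 50% in Control favours lower Susceptible values in turn. Over all 641730 distal CpG-poor tiles, without a choice on level, Susceptible 7 was also lowest (84.1%) and Susceptible 6 highest (86.9%). Control read 85.4 to 86.4% there. CpG-poor tiles of the same level window within 5 kb of gene ends, chosen on Control in the same way, averaged 34.5% ± 0.718 and 36.2% ± 1.74. They had the same order as the chosen tiles. Susceptible 6 and 7 read 38.6 and 36.15%, above every Control library (33.6 to 35.5%). Susceptible 2 and 3, at 35.3 and 34.7%, lay within the Control range.

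The contrast in single tiles came from a quasi-binomial logistic model of methylated and unmethylated calls, fitted to the 1041809 tiles that had 3 or more CpGs and 20 or more calls in each library. Of all tiles tested, 0% passed a Benjamini-Hochberg adjusted p of 0.05, and 0 chosen tiles did. The smallest adjusted p among the chosen tiles was 0.997 in the quasi-binomial model, whose dispersions were moderated by the formulas of limma. An F test on logit levels, with variances moderated by the same formulas, also called 0 chosen tiles, with a smallest adjusted p of 0.946. At an unadjusted p under 0.05, 2.18% of all tiles tested were higher in Susceptible and 2.19% were lower (4.38% in either direction). Among chosen tiles these were 1444 (10.1%) and 191 (1.34%), or 1635 (11.5%) in all. The rule used the Control side of this contrast, so nothing is read from the excess of higher tiles. With tiles chosen on the mean of 9 libraries the shares were 6.15 and 2.27%, and with tiles chosen on Susceptible they were 2.93 and 4.65%. Without Susceptible 6 alone the share of higher chosen tiles was 5.12%, and without Susceptible 6 and 7 it was 2.80%, against 1.05 and 1.02% of all tiles tested.

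All 4 Susceptible libraries lay above all 5 Control libraries in 0.598% of tiles tested and below them in 0.96%. The corresponding counts among chosen tiles were 247 (1.73%) and 30 (0.210%). They were 1.10 and 0.333% with the choice on the mean of 9, and 0.541 and 0.888% with the choice on Susceptible. The median difference over chosen tiles was +3.37 points, beside -0.18 over all tiles tested.

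The 5 chosen tiles of smallest p that were higher in Susceptible are described with their values, since being picked for the contrast leaves no test for them. In Phactr3, a phosphatase and actin regulator (chr2:178250001-178251000), Control 2, 3, 4, 5 and 8 read 39.2, 52.2, 53.6, 46.1 and 47.1%, and Susceptible 2, 3, 6 and 7 read 62.3, 71.5, 82.9 and 85.0%. The groups did not overlap, and 295 to 639 calls lay behind each value. In Auts2, a neurodevelopmental gene (chr5:132075001-132076000), Control read 14.9, 10.7, 22.5, 19.0 and 10.5% and Susceptible 41.2, 36.3, 39.9 and 45.8% on 105 to 337 calls. Here Susceptible 2 and 3 lay close to 6 and 7. In Mfhas1, a leucine-rich repeat GTPase gene (chr8:35614001-35615000), Control ranged from 23.0 to 61.7% and Susceptible from 65.1 to 81.1%. A tile 16.3 kb from Lipg, the endothelial lipase gene (chr18:74922001-74923000), ranged from 39.1 to 49.9% in Control and from 63.4 to 65.1% in Susceptible. In Asic2, an acid-sensing ion channel gene (chr11:81587001-81588000), the ranges were 39.8 to 52.8% and 58.9 to 69.5%. Differences of means in these 5 tiles were 27.8, 25.3, 30.3, 18.8 and 18.3 points. Their adjusted p was 0.997 in each case in the quasi-binomial model.

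The 5 of smallest p that were lower in Susceptible are described in the same way. Near Oscar, an immunoglobulin-like receptor gene of bone-resorbing cells (chr7:3601001-3602000), Control 2, 3, 4, 5 and 8 read 25.3, 61.7, 39.1, 57.1 and 40.7%, and Susceptible 2, 3, 6 and 7 read 28.3, 12.2, 19.8 and 15.8%. Susceptible 2 overlapped Control 2. Near Rpgrip1l, a gene of the ciliary transition zone (chr8:91190001-91191000), Control ranged from 13.7 to 53.7% and Susceptible from 11.5 to 22.9%. Near Snrk, a kinase gene (chr9:122078001-122079000), the ranges were 37.2 to 53.2% and 24.8 to 31.0%, and near Aig1 (chr10:13641001-13642000) they were 25.9 to 46.7% and 12.05 to 19.1%. The groups did not overlap in these last 2. The Gphn tile at chr12:78350001-78351000, the one with the most calls per CpG, read 23.3, 35.4, 32.3, 30.2 and 31.5% in Control and 24.9, 25.9, 23.7 and 26.1% in Susceptible, and Control 2 was the lowest library. Differences of means were -25.8 points near Oscar, -17.7 near Rpgrip1l, -17.6 near Snrk, -18.2 near Aig1 and -5.40 in Gphn. Their adjusted p in the quasi-binomial model was 0.997 as well.

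Genes nearest to or holding a chosen tile, at any distance, numbered 5757. The 5 with most chosen tiles are expressed in neurons: Myt1l, a zinc finger factor of neuronal identity, with 39 of its 352 distal CpG-poor tiles, Celf4, an RNA-binding protein, with 38 of 407, Phactr1, a phosphatase and actin regulator, with 35 of 296, Ptprn2, a protein of dense-core vesicles, with 33 of 442, and Rbfox1 with 33 of 829. Arpp21 followed with 31 of 302, and Pde10a, the striatal phosphodiesterase of cAMP and cGMP, with 30 of 271. Long genes have more tiles to offer, and as shares these counts were 11.1, 9.34, 11.8, 7.47, 3.98, 10.3 and 11.1%, against 2.22% over the whole set.

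Gene lists were used to ask near which kinds of genes the chosen tiles lie, with a tile assigned to a list when it is inside a listed gene or when a listed gene is its nearest within 100 kb. Over all genes, 12466 of 520997 such tiles (2.39%) were chosen tiles. Near 26 genes of striatal projection neurons, the main neurons of the accumbens, 192 of 2296 distal CpG-poor tiles (8.36%) were chosen tiles. Near 17 general and GABA neuron genes the share was 167 of 2636 (6.34%). It was 23 of 629 (3.66%) near 12 cortical projection neuron genes, 13 of 558 (2.33%) near 22 oligodendrocyte genes, 35 of 1610 (2.17%) near 19 astrocyte genes, 17 of 930 (1.83%) near 15 endothelial and mural genes and 8 of 786 (1.02%) near 16 microglia genes. Near 22 genes of liver, muscle, pancreas and skin it was 3 of 328 (0.915%). Near 25 genes of stress and social defeat research it was 48 of 1238 (3.88%), and Dnmt3a, a DNA methyltransferase, gave 15 of those 48. In the cortical list, 13 of the 23 chosen tiles were those of Bcl11a, out of its 160 distal CpG-poor tiles. The striatal list reached 20 of its 26 genes. Several of its genes had high shares within the same 100 kb: 29.6% of the tiles of Gng7, a G protein subunit gene (8 of 27), 20.5% of those of Meis2, a homeobox gene (23 of 112), 16.04% of those of Adcy5, an adenylyl cyclase gene (17 of 106), and 16.3% of those of Gnal, the olfactory-type G protein alpha subunit (17 of 104). Drd1, the D1 dopamine receptor gene, had 0 of 40, and the 5 chosen tiles that have it as nearest gene lay farther away.

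**Figure D4:**
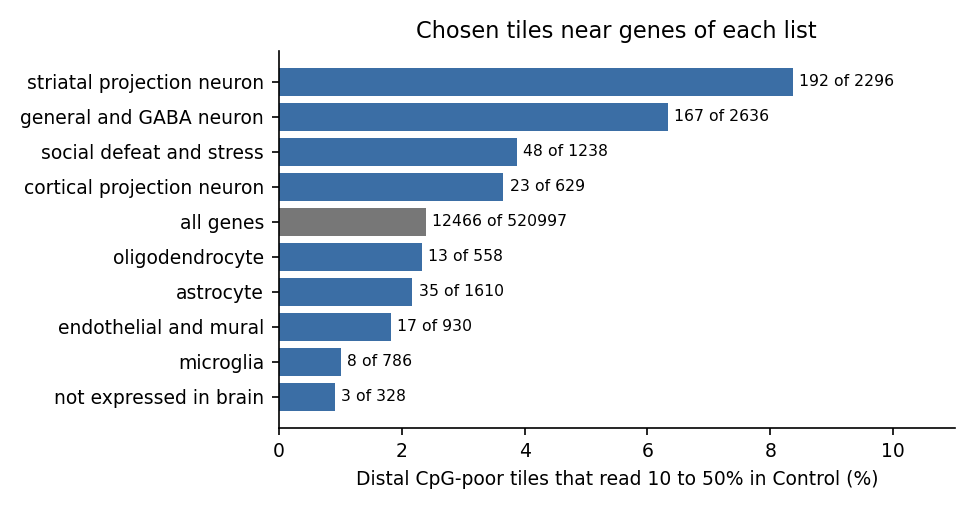
Share (%) of distal CpG-poor tiles near the genes of each list that read 10 to 50% in the pooled Control calls, with the counts beside the bars and all genes, on the same limit of 100 kb, in grey. The striatal (8.36%) and general neuron (6.34%) lists lie above the 2.39% of all genes, and the microglia list (1.02%) below it.

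Tiles of each list with the lowest pooled Susceptible level, among those with at least 100 calls in every library, show the spread within a list. Taking them for a low Susceptible level favours lower Susceptible values, so nothing is read from their direction. In Adcy5 (chr16:35164001-35165000) Control ranged from 13.7 to 24.5% and Susceptible from 14.9 to 22.8%. In Gng7 (chr10:80955001-80956000) the ranges were 7.73 to 17.9% and 14.9 to 23.9%, and in Gnal 3.97 to 22.3% and 14.6 to 25.4%. The lowest tile of all lists in Susceptible was in Nrxn3 (chr12:89811001-89812000), with 9.62, 8.78, 5.95, 19.5 and 16.3% in Control 2, 3, 4, 5 and 8, against 4.31, 6.45, 5.24 and 4.90% in Susceptible 2, 3, 6 and 7. Control 5 and 8 were the highest libraries there, and Control 4 lay among the Susceptible ones. Near Neurod2, a cortical neuron factor, 2 neighbouring tiles (chr11:98317001-98319000) read 38.3 to 44.2% and 8.49 to 20.8% in Control and 14.1 to 46.3% and 5.53 to 9.86% in Susceptible. In the first of them Susceptible 7 read 14.1% and Susceptible 2 read 46.3%. In Opalin, an oligodendrocyte membrane protein gene (chr19:41071001-41072000), Control ranged from 10.4 to 29.9% and Susceptible from 4.33 to 16.8%. In St18, a zinc finger factor gene of the same list (chr1:6760001-6761000), the ranges were 3.88 to 25.9% and 16.2 to 27.9%. Astrocyte tiles had wide Control ranges: 7.35 to 48.1% near Gja1, the connexin 43 gene (chr10:56431001-56432000), with 12.5 to 20.6% in Susceptible, and 8.82 to 45.9% near Slc1a3, a glutamate transporter gene (chr15:8716001-8717000), with 21.6 to 32.9%. Runx1, a haematopoietic and microglial factor gene, held a tile (chr16:92700001-92701000) of 20 to 62.6% in Control and 18.6 to 31.7% in Susceptible and another (chr16:92693001-92694000) of 39.5 to 57.5% and 21.7 to 46.6%. Near Foxf2, a mural cell factor gene (chr13:31613001-31614000), the ranges were 10.9 to 28.9% and 10.95 to 18.4%, and near Cdh5, the endothelial cadherin gene (chr8:104051001-104052000), 20.8 to 38.5% and 14.7 to 21.9%. The groups overlapped in each of these tiles.

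Levels by list differed between libraries, and Susceptible 6 and 7 stood apart near striatal genes. Over the 192 striatal tiles, Control 2, 3, 4, 5 and 8 read 40.2, 41.2, 45.4, 35.4 and 37.6%, and Susceptible 2, 3, 6 and 7 read 41.0, 41.4, 53.1 and 57.3%. Susceptible 2 and 3 lay inside the Control range, and most of the +8.26 points between group means (39.9% ± 3.80, n = 5, and 48.2% ± 8.25, n = 4, SD) came from the other 2. With tiles chosen on the mean of 9 the difference was +5.98 points, and with each Control library held out of the choice it was +5.87. The split was not limited to the chosen tiles: over the 2104 distal CpG-poor tiles of over 50% near the same genes, Susceptible 6 and 7 read 86.01 and 84.7%, and the other 7 libraries 81.6 to 82.5%. An earlier look at these libraries had already shown striatal genes high in Susceptible 6 and 7, so the list is not independent evidence of its direction. Of the 192 tiles, 41 (21.4%) were higher at an unadjusted p under 0.05 and 0 lower, and 5 had groups that did not overlap, all higher. Among all chosen tiles, whose choice favours this direction, 10.1% were higher and 1.34% lower, and among all tiles tested 2.18 and 2.19%. Groups without overlap and higher in Susceptible made up 1.73% of chosen tiles and 0.598% of all tiles tested. Chosen tiles outside the striatal list also read highest in these libraries, at 45.5 and 43.5% against 36.2 to 40.2% in Control.

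Several striatal genes showed the same split, here over all chosen tiles inside or nearest to the gene at any distance. Over the 30 tiles of Pde10a, Control read 41.3, 40.2, 46.3, 32.8 and 38.3% and Susceptible 41.9, 41.4, 59.3 and 62.1%. Over the 17 tiles of Gnal, Control read 30.4 to 44.2% and Susceptible 42.1, 42.1, 54.1 and 62.6%. Over the 15 of Foxp1, Control read 32.9 to 48.5% and Susceptible 40.2, 42.9, 57.9 and 62.4%. Over the 17 of Adcy5, Control read 35.1 to 41.9% and Susceptible 40.05, 39.7, 54.3 and 56.0%. In Rarb, a retinoic acid receptor gene, Control 4 at 50.1% was close to Susceptible 6 at 50.6%, with Susceptible 7 at 59.5%. Drd1, Isl1, a factor of D1 neurons, and Foxp2, a forkhead factor gene, each with 5 tiles, did not show it. Of these tiles, 0 of Drd1, 1 of Isl1 and 5 of Foxp2 lay within 100 kb of the gene. Over those of Foxp2, Control read 38.2 to 45.7% and Susceptible 43.9, 38.2, 36.9 and 58.5%, with Susceptible 7 alone high. Drd1 read 40.3% ± 3.87 in Control (SD, n = 5) and 37.7% ± 2.40 in Susceptible (SD, n = 4), and Isl1 read 40.1% ± 4.61 and 37.0% ± 3.53, differences smaller than the Control SD.

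In the other lists Susceptible 6 and 7 stood less far above Control or were not both high. The general and GABA neuron tiles read 33.8 to 40.2% in Control and 38.8, 38.2, 46.7 and 46.0% in Susceptible 2, 3, 6 and 7, and 20 of 167 (11.98%) were higher and 2 lower at an unadjusted p under 0.05. That share of higher tiles is close to the 10.1% of all chosen tiles, beside 2.18% of all tiles tested. The 48 tiles of the stress list read 37.5, 38.6, 35.6, 41.6 and 37.7% in Control and 39.4, 38.5, 45.04 and 42.2% in Susceptible. Susceptible 6 and 7 were above each Control library, and 8 tiles (16.7%) were higher and 0 lower. This order depended on the choice, and the difference was +3.08 points. With each Control library held out it was +1.80, and Control 5 (43.8%) lay above Susceptible 7 (42.5%), though over different sets of tiles. Chosen on the mean of 9 it was +0.690, with Control 5 at 43.04% and Susceptible 6 and 7 at 43.02 and 39.4%. In the cortical list Susceptible 6 read 50.1% and Susceptible 7 39.6%, so the pair did not move together there, and 3 of 23 (13.04%) were higher and 1 lower. Astrocyte tiles read 34.8 to 42.9% in Control and 42.2, 40.6, 48.7 and 45.7% in Susceptible, and 5 of 35 (14.3%) were higher and 0 lower. Slc4a4, a bicarbonate transporter gene, gave 11 of the 35 and 4 of those 5. Its tiles read 29.1 to 45.9% in Control and 43.8, 44.1, 54.6 and 57.0% in Susceptible. The astrocyte difference of +3.80 points became +0.600 with the choice on the mean of 9. With each Control library held out it was +0.453, and Control 3 and 5 (46.8 and 49.0%) lay above Susceptible 7 (45.9%), though over different sets of tiles. The 8 tiles of Nfia, a glial and neuronal factor gene, read 34.9 to 42.3% and 33.7, 32.6, 39.0 and 31.7%. Oligodendrocyte tiles read 30.7 to 38.2% in Control and 35.7 to 37.6% in Susceptible, microglia tiles 36.7 to 44.4% and 37.8 to 45.1%, and endothelial and mural tiles 36.7 to 41.9% and 35.7 to 42.8%. In these 3 lists the groups overlapped, Susceptible 6 and 7 were not both high, and 0 tiles were higher at that p. Lower at that p were 0 of 13 oligodendrocyte, 1 of 8 microglia and 2 of 17 endothelial and mural tiles. The share lower was 1.34% of all chosen tiles and 2.19% of all tiles tested. In 1 endothelial and mural tile the groups did not overlap, lower in Susceptible (0.210% of chosen tiles and 0.96% of all tiles tested). Whether the cell makeup of the punches moved with these levels was not tested.

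Other genes with many chosen tiles differed in how far Susceptible 6 and 7 stood out. Over the 35 tiles of Phactr1, Control read 36.6 to 45.6% and Susceptible 44.5, 44.7, 57.5 and 57.0%. Over the 33 of Rbfox1, Control read 32.7 to 40.7% and Susceptible 41.0, 41.9, 51.5 and 50.4%. Over the 31 of Arpp21, Control read 35.9 to 44.2% and Susceptible 44.7, 45.2, 54.8 and 52.6%. In Rbfox1 and Arpp21, Susceptible 2 and 3 were just above the highest Control library, so all Susceptible libraries lay above all Control ones. These tiles were taken for low Control levels, so nothing is read from the order of these libraries. Myt1l read 32.8 to 39.4% and 38.2, 36.8, 48.8 and 43.7%. In Ptprn2 Susceptible 7 alone was high, at 51.2% beside 34.0 to 36.8% in the other 3. Celf4 read 35.9% ± 3.54 in Control (SD, n = 5) and 38.1% ± 3.60 in Susceptible (SD, n = 4), a difference below the SD. The tiles of a gene share their libraries and are not replicates.

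**Figure D5:**
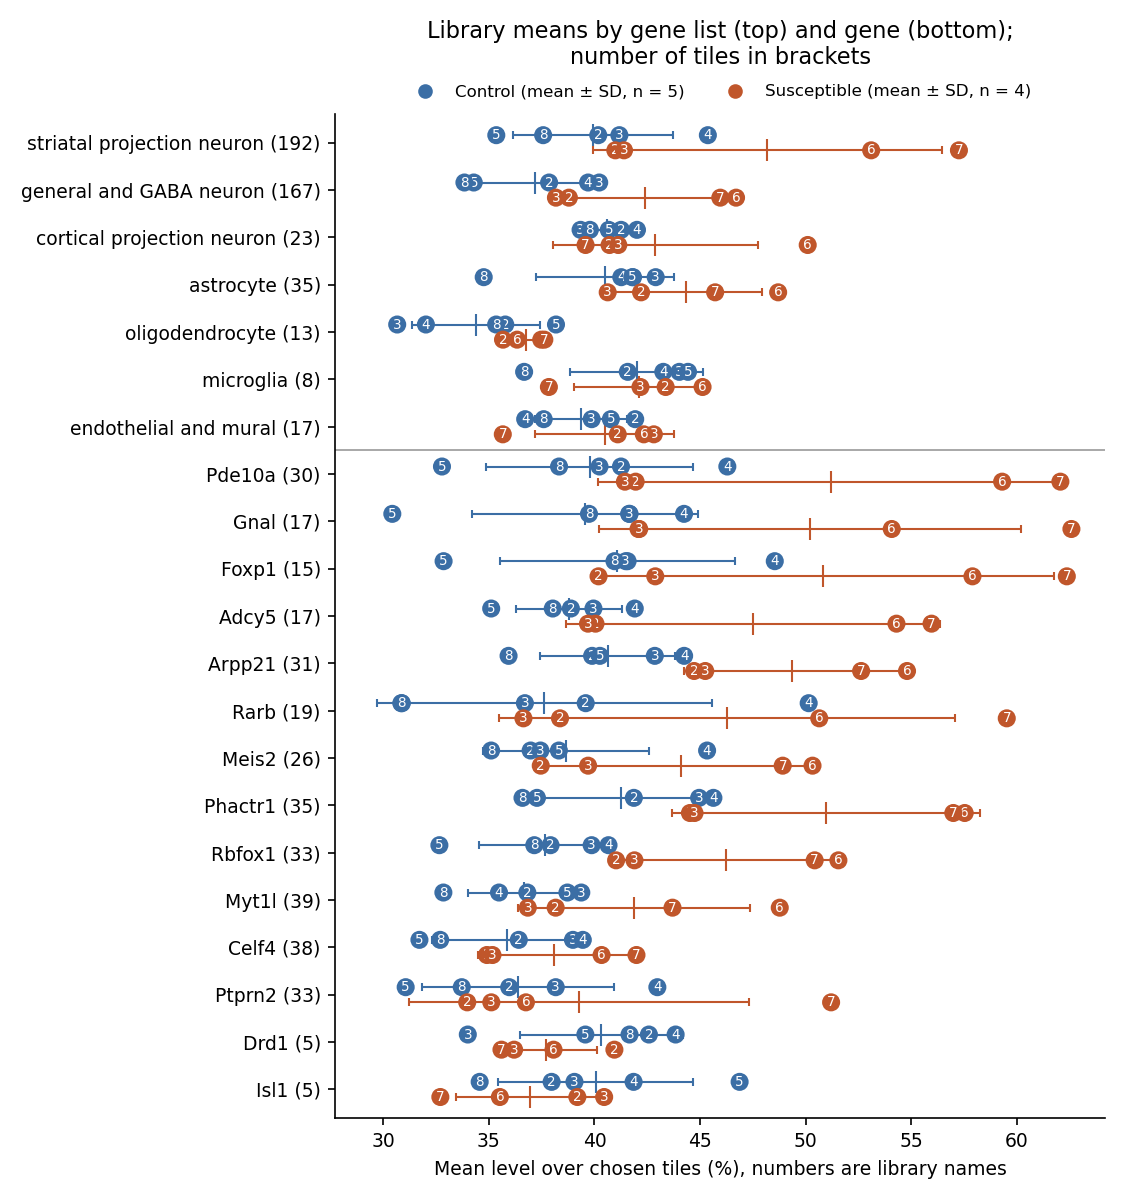
Mean methylation (%) over chosen tiles in each library (numbered points) with group mean and SD, Control in blue and Susceptible in orange, for 7 gene lists and 14 genes, with the number of tiles in brackets. Libraries 6 and 7 lie above the other libraries for the striatal list (53.1 and 57.3%) and for Pde10a (59.3 and 62.1%), and inside the Control range for Drd1 (38.1 and 35.6%), whose 5 tiles lie over 100 kb from the gene.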

How the data were processed

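CpG methylation was measured in 9 nucleus accumbens libraries, prepared from frozen punches with the Pico Methyl-seq kit of Zymo, per the labels' protocols. The submitters' processing notes name Bismark, Bowtie and Picard and the build mm10 (GRCm38), without settings. Per the file headers, each deposited file lists cytosines with their count of calls and the percent read as C and as T. Every listed cytosine had at least 10 calls, so the totals of 313475624 to 570984634 listed calls per library (13446563 to 22631489 cytosines) are not the full depth.

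Methylated calls were recovered as count times percent of C, the strands of a CpG were added, and CpGs were summed into 1-kb tiles. Gene bounds, promoter windows and miRNAs came from RefSeq tables of GRCm38.p6. A tile level is methylated over all calls of 1 library, at the CpGs listed in that library. A quasi-binomial logistic model was fitted to all 1041809 autosomal and X tiles that had 3 or more CpGs and 20 or more calls in each library. Its dispersion was moderated with the squeezeVar formulas of limma, with a floor of 1. The formulas were checked against limma 3.58.1 on the dispersions of a sample of these tiles. An F test gave the p of the group term, and p-values were adjusted by Benjamini-Hochberg over all tiles fitted (threshold 0.05). The planned exact permutation tests of the tiles named for their contrast are not printed, since those tiles were picked for it. Analyses used Python 3.11.15, numpy 2.4.6, scipy 1.17.1 and pandas 2.3.3.

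The tiles, gene lists and tests were chosen with earlier results of these data known. Named tiles were, for each list, up to 3 of lowest Susceptible level with 100 or more calls in every library, of which some are printed, the 3 longest runs, the 5 of smallest p in each direction, the 3 of largest Control SD, the 3 with most calls per CpG, those nearest the level limits, the 3 farthest from genes and the 5 genes with most tiles. Other listed genes with 5 or more tiles, the printed promoters and the miRNAs were chosen after their values were seen. No genome sequence was used, so motifs were searched in promoter windows only, and the planned MEF2 search was not run. Unplaced scaffolds were left out, and 1 run of tiles is not reported here. Alternatives covered the test, depth, level window, CpG count, distance and each library left out.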

Additional observations from a re-analysis of the deposited data

Results flagged for a closer look

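Within the groups of 4 or 5 libraries, 11 of 226 sets of library values had a highest or lowest library far from its group, by the gap to its nearest neighbour over the whole range. Chance flags about 1 in 20 such sets. Among means over several tiles, Susceptible 6 read 50.1% in the cortical list beside 39.6 to 41.1% in the other Susceptible libraries, Susceptible 7 read 51.2% in Ptprn2 beside 34.0 to 36.8%, and Control 8 read 34.8% in the astrocyte list beside 41.3 to 42.9% in the other Control libraries.

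Among single tiles, Control 5 was apart in 4: 9.71% in Bcl11a beside 36.6 to 42.1%, 22.9% near Sox17 beside 6.78 to 11.1%, 82.0% near H2-Q10 beside 3.93 to 19.7%, and 49.3% in the Foxp1 promoter tile beside 41.7 to 43.6%. Control 8 read 48.1% near Gja1 beside 7.35 to 19.0%. In Susceptible, library 7 read 10.95% near Foxf2 beside 18.3 to 18.4%. Library 6 read 32.0% in the last tile of the Barx1 run beside 22.1 to 23.4%, and library 2 read 12.05% near Aig1 beside 18.8 to 19.1%.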

How the results depend on the processing

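No chosen tile passed the adjusted threshold under the alternatives run. Over the 10 tiles named for their contrast, which were picked for large differences, the smallest adjusted p was 0.362. The Gphn tile had no value with the most covered CpGs left out. The mean difference of +3.65 points became -1.003 when tiles were chosen on Susceptible, +1.16 with Control libraries held out and +1.22 without Susceptible 6 and 7. It ranged from 2.52 to 4.85 with 1 library left out in turn. Where that library was a Control one, the tiles were also chosen again on the other 4 (14081 to 14945 tiles). The number of chosen tiles fell to 8948 with 100 calls, 9438 with a window of 15 to 45% and 7212 with 3 to 10 CpGs.

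Shares of chosen tiles higher and lower at an unadjusted p under 0.05 were 10.1 and 1.34% in the quasi-binomial model. They were 2.99 and 0.406% with the moderated F test on logit levels (1.07 and 2.18% of all tiles tested). In the quasi-binomial model without moderation they were 5.19 and 0.708% (1.95 and 2.43%). With total calls as a covariate 8.08% were higher and 2.29% lower (2.48 and 2.38%). They were 6.15 and 2.27% chosen on the mean of 9, and 2.93 and 4.65% chosen on Susceptible (2.18 and 2.19% in both). Without Susceptible 6 and 7, 2.80% were higher (1.02%). With 1 library left out they ranged from 5.12 to 13.2% and from 0.988 to 1.52%. The shares of all tiles tested were then 1.05 to 2.83% and 1.345 to 2.86%. The lowest share of higher tiles came without Susceptible 6. Leaving out a Control library also changed the choice of tiles.

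The replicate block could use libraries 2 and 3 of each group, whose numbers the labels do not tie to a shared animal or day (correlations of same-numbered deviations 0.0216 and -0.0426). With the block, 4.79% were higher and 4.30% lower, against 2.86 and 2.01% of all tiles, and 0 passed the adjusted threshold. Over these 4 libraries the difference fell from 30.3 to 10.8 points in the Mfhas1 tile and from 18.3 to 9.80 in the Asic2 tile.

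Shares without overlap, higher and lower (1.73 and 0.210%), were 1.10 and 0.333% chosen on the mean of 9, and 0.541 and 0.888% chosen on Susceptible (0.598 and 0.96% of all tiles tested). They were 4.11 and 2.07% without Susceptible 6 and 7 (2.68 and 3.13%), 5.81 and 1.30% without Control 5 and 8 (3.05 and 3.08%), and 2.10 to 3.89% and 0.422 to 0.652% with 1 library left out (0.886 to 1.54% and 1.44 to 2.15%), where fewer libraries make such order commoner. Where Control libraries were left out, the tiles were also chosen again on the Control libraries kept. Other changes had causes that were not tested. Leaving out pairs of libraries, holding Control libraries out of the choice and searching promoter windows were chosen after seeing the data. Depth limits single tiles: 50 calls in a library leave wide counting error.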
